A study of Mus musculus with 6 samples.

Results

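Lysyl oxidases, lysyl hydroxylases and the procollagen C-proteinase with its enhancer are the enzymes and helper that turn newly made collagen chains into crosslinked fibrils. The 10 genes described here were chosen by symbol: the lysyl oxidases Lox, Loxl1, Loxl2, Loxl3 and Loxl4, the lysyl hydroxylases Plod1, Plod2 and Plod3, the C-proteinase gene Bmp1 and its enhancer gene Pcolce. They are 10 of 54532 genes in the count files, and all 10 passed the limit of 10 reads over 6 libraries that left 19452 genes for testing. Loxl2 passed it with 18 reads, 15 of which were in control.

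RNA came from 3T3, an established mouse line of embryonic fibroblasts (Flp-In 3T3 per the methods of the study). Polyadenylated RNA was sequenced in 3 libraries of cells given a control siRNA and 3 of cells given siRNAs against Safb1 (the gene Safb), Safb2 and Sltm together (labelled triple KD, called SAFB KD here). The siRNAs were given repeatedly, and cells were harvested on the third day. The question was how loss of these related nuclear RNA-binding proteins changed the poly(A)+ RNA of fibroblasts.

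Collagen maturation starts in the endoplasmic reticulum, where lysyl hydroxylases add hydroxyl groups to lysines of the chains. LH1, from Plod1, acts mainly on lysines of the triple helix, LH2, from Plod2, on those of the telopeptides at the chain ends, and LH3, from Plod3, also adds sugars to hydroxylysine. After secretion, BMP1 cuts off the C-propeptide, a step that PCOLCE enhances, and lysyl oxidases then convert lysines and hydroxylysines to aldehydes that form the crosslinks. Lysyl oxidases use copper and lysyl hydroxylases use iron. Fibroblasts are the main source of fibrillar collagen in connective tissue.

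The libraries held 33323307 to 53441129 counts. All 3 targets fell and none was lost: RNA of Safb (log2 fold change -1.01, SE 0.040), Sltm (-0.70, SE 0.037) and Safb2 (-0.64, SE 0.047) remained, and proteins were not analysed here. Of 8 fibroblast markers all were detected. Their summed level was 18466 to 20382 CPM (reads of a gene scaled to library size) in control and 17306 to 17772 CPM in SAFB KD. By the test used below, 6 of these markers were lower, among them Pdgfrb (-1.13, SE 0.038). Of all genes tested, 20.1% were lower and 21.4% higher, which also holds beside the marker lists that follow. Markers of other cell types were low, and the sums of 4 lists were higher in SAFB KD. Leukocyte markers summed to 3.48 to 4.15 CPM in control and 6.37 to 8.33 in SAFB KD (1 of 3 tested). Endothelial markers summed to 7.89 to 8.32 and 9.32 to 10.3 (2 of 3). Smooth muscle markers summed to 3.43 to 3.96 and 4.56 to 5.03 (3 of 3), and adipocyte markers to 0.595 to 0.837 and 1.68 to 1.96 (2 of 3). Of each of these 4 lists 1 gene was called higher and none lower. The endothelial call was for Pecam1, whose groups overlap (0.862 ± 0.253 and 1.46 ± 0.439 CPM). The other endothelial, smooth muscle and adipocyte genes tested were not called. Epithelial markers summed to 0.179 to 0.320 CPM in control and 0.302 to 0.455 in SAFB KD (2 of 4), with overlapping sums. Neither Krt8 (0.99, SE 0.52) nor Cdh1 (-1.74, SE 1.1) was called. Epcam, Krt18, Kdr and Adipoq had 0 reads. A part of other cell types in the results below was not tested.

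Short stretches of the catalytic regions can be compared between family members. The coding stretch around the copper-binding histidines is given here for the 4 Loxl genes, from GENCODE M21 transcripts on GRCm38, 5′ to 3′ on the coding strand. Capitals mark the 33 bases that encode the copper-binding motif, and lower case marks 12 coding bases on each side. Each stretch joins a pair of exons, so the coordinates span an intron: Loxl1 exons 3 and 4 (chr9:58293708-58294393, minus strand), Loxl2 exons 10 and 11 (chr14:69682304-69689049, plus), Loxl3 exons 10 and 11 (chr6:83049983-83050137, plus) and Loxl4 exons 11 and 12 (chr19:42598795-42599911, minus).
Loxl1: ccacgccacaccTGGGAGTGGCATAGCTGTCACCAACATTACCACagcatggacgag
Loxl2: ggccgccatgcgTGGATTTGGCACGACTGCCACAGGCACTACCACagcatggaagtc
Loxl3: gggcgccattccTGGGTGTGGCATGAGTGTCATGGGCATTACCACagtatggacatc
Loxl4: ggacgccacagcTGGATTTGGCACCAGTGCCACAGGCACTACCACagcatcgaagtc
Over these 33 bases, Loxl1 matched Lox, whose stretch was compared but is not printed, at 32, and Loxl2 matched Loxl4 at 31. Loxl3 matched 24 or 25 bases of each other member, and Lox and Loxl1 matched Loxl2 and Loxl4 at 21 to 23 bases. By these 33 bases alone, Lox was closest to Loxl1 and Loxl2 to Loxl4, and Loxl3 was apart from both pairs. So short a stretch does not settle how the whole genes are related.

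The lysyl hydroxylases share a shorter motif, in which a histidine and an aspartate hold the iron. Its 24 bases are in capitals below, again with 12 coding bases on each side, from Plod1 exon 18 (chr4:147913247-147913294, minus strand), Plod2 exon 19 (chr9:92606815-92606862, plus) and Plod3 exon 18 (chr5:136994984-136995031, plus).
Plod1: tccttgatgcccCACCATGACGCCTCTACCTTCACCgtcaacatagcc
Plod2: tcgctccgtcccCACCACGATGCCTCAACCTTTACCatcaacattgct
Plod3: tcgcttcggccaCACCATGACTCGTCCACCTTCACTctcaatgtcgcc
Plod1 matched each of the others at 20 of 24 bases, and Plod2 matched Plod3 at 17. In spite of these motifs, no stretch of 50 bases was shared between the longest coding transcripts of any of the 10 genes, so that reads of this length can be told apart within the set. Against transcripts of all other genes, 9 members shared no such stretch either, whereas 45.8% of those of Loxl2 also occurred elsewhere.

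Across the set, 3 members were higher and 5 lower in SAFB KD by the edgeR quasi-likelihood test (adjusted p under 0.05 over all genes tested), and 2 were not called. Of all genes tested, 21.4% were higher and 20.1% lower, 41.5% in all. Loxl1 alone of the members passed the test for a change beyond 2-fold, which 0.524% of all genes passed as lower, 0.699% as higher and 1.22% in all. Groups did not overlap for the 8 members that were called, against 49.0% of all genes, and overlapped for Loxl3. Loxl2 is left out of this count, since control 2 and SAFB KD 2 held 2 reads each and their levels differ by the scaling alone. The median log2 fold change was -0.13 for the members and 0.010 for all genes. Members are not replicates, and these counts describe the set.

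**Figure D1:**
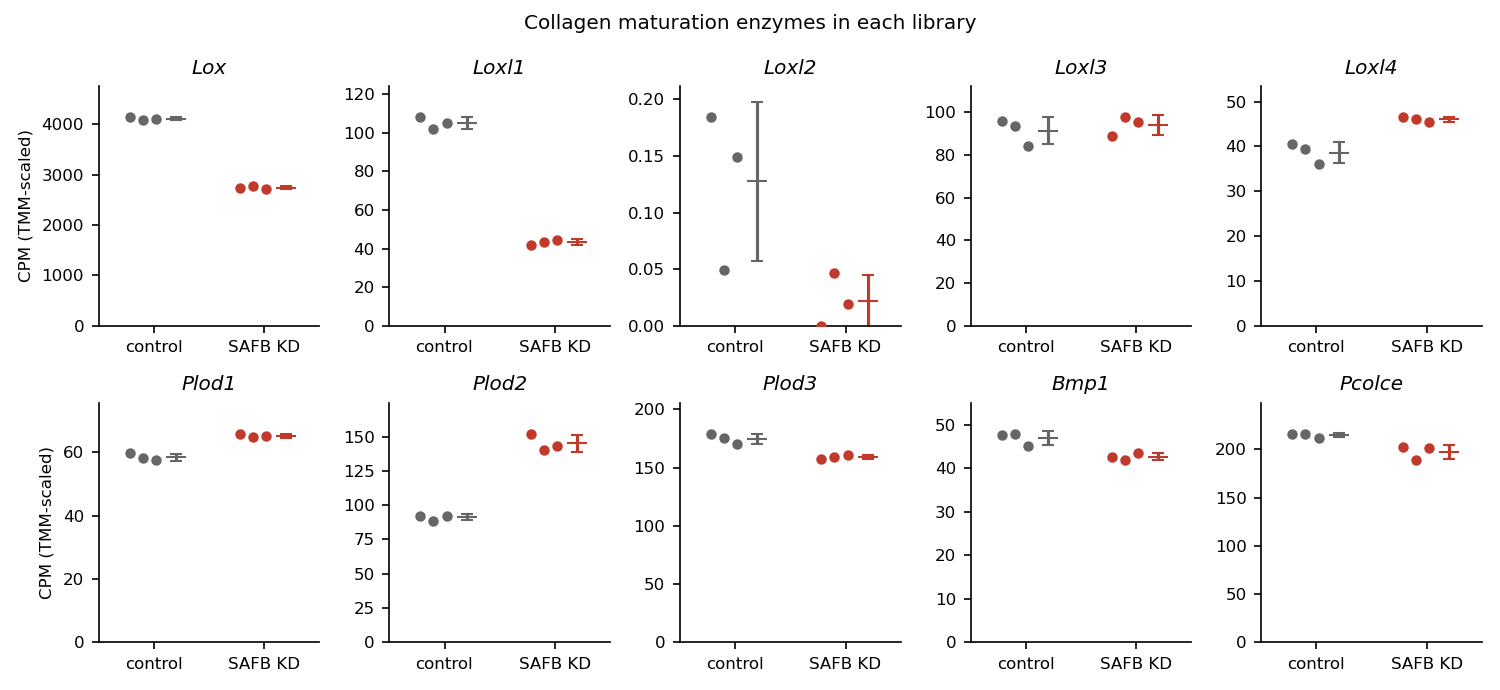
CPM of each of the 10 genes (y axis, from 0) in 3 control (grey) and 3 SAFB KD (red) libraries, with the mean and SD beside the points. Lox lay at 4086 to 4137 CPM in control and 2720 to 2774 in SAFB KD, and Loxl3 overlaps between groups. Loxl2 rests on 18 reads, with 2 reads each in control 2 and SAFB KD 2.

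Lox (chromosome 18, 52516067 to 52529867, minus strand, GRCm38), the founding lysyl oxidase and the main crosslinking enzyme of fibrillar collagen, was by far the most abundant member. It measured 4137, 4086 and 4109 CPM in control 1 to 3, and 2738, 2774 and 2720 CPM in SAFB KD 1 to 3. All values of SAFB KD were below those of control, and the spread within each group was under 1% of its mean (coefficient of variation 0.626% and 0.998%). The mean went from 4111 ± 25.7 to 2744 ± 27.4 CPM (SD, n = 3 each). On the log2 scale that was a difference of -0.58 (SE 0.026; edgeR adjusted p = 1.96e-21), or 1.5-fold lower. Per kilobase of exon, Lox stood at 860 ± 5.38 CPM in control, which ranked it at 27 of 19452 genes tested. Its RNA therefore stayed at a high level in SAFB KD, at 574 ± 5.73 CPM per kilobase.

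Loxl1 (chromosome 9, 58287738 to 58313186, minus strand), known for its role in the upkeep of elastic fibres, fell most among the members with ample reads. Its levels were 108, 102 and 105 CPM in control and 41.7, 43.6 and 44.6 CPM in SAFB KD. The groups lay far apart, with a mean of 105 ± 3.01 against 43.3 ± 1.49 CPM (SD, n = 3), or 2.43-fold lower (-1.28 on the log2 scale, SE 0.038; edgeR adjusted p = 8.48e-27). The fall also passed the edgeR glmTreat test against a change of 2-fold (adjusted p = 1.76e-07). In the order of log2 fold changes over all genes tested, Loxl1 stood 4.30% from the lower end. Among the lysyl oxidases, only Lox and Loxl1 were called lower.

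Loxl3 (chromosome 6, 83034173 to 83052562, plus strand), a member of the subgroup with scavenger receptor domains, was not called. It measured 96.0, 93.5 and 84.2 CPM in control and 88.8, 97.5 and 95.4 CPM in SAFB KD. The groups overlap, and the log2 fold change was 0.042 (SE 0.040; edgeR adjusted p = 0.457). Loxl4 (chromosome 19, 42593982 to 42612813, minus strand), of the same subgroup, was 40.5, 39.4 and 36.0 CPM in control and 46.5, 46.1 and 45.5 CPM in SAFB KD. It rose by a small amount, 1.19-fold (log2 fold change 0.25, SE 0.047; edgeR adjusted p = 2.54e-05), with every SAFB KD library above every control.

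Loxl2 (chromosome 14, 69609068 to 69695834, plus strand), an enzyme that crosslinks collagen IV among other targets, was close to undetected. The libraries held 8, 2 and 5 reads in control and 0, 2 and 1 in SAFB KD. With 15 against 3 reads and scaled by library totals, the ratio of SAFB KD to control was 0.175 (exact 95% interval 0.0325 to 0.618, for counting error only), and the gene was not called by edgeR (adjusted p = 0.0664). Without control 2 it was called (edgeR adjusted p = 0.0360). Loxl2 passed the limit on reads for testing through control alone, the group in which it was higher. The interval and this call come from a gene admitted by its control reads, so no fall is concluded from them. STAR gene counts leave out reads that fit several places, and the part of the shared stretches of Loxl2 in its low count was not tested.

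Within the lysyl oxidase family, Lox made up nearly all RNA in both groups. Summed over the 5 genes, the level was 921 ± 7.04 CPM per kilobase in control and 619 ± 6.25 in SAFB KD (SD, n = 3), a ratio of 0.672. Lox took 93.4 ± 0.218% of it in control and 92.8 ± 0.187% in SAFB KD. The share of Loxl1 was 3.54, 3.39 and 3.46% in control and 2.05, 2.11 and 2.20% in SAFB KD. Loxl3 held 2.15 ± 0.139% and 3.30 ± 0.142%, and Loxl4 0.995 ± 0.0559% and 1.77 ± 0.0221%. So Loxl1 was the second most abundant lysyl oxidase in control, and Loxl3 took that place in each SAFB KD library. The groups did not overlap for any of these 4 shares (exact permutation test, 2-sided, p = 0.10 each, the smallest that 3 against 3 libraries allow; 0.14 adjusted over 22 such measures).

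Plod2 (chromosome 9, 92542223 to 92608428, plus strand), which encodes the telopeptide lysyl hydroxylase, rose most of the 10 genes. It was 92.2, 88.5 and 92.4 CPM in control and 152, 140 and 143 CPM in SAFB KD. All SAFB KD libraries lay well above all controls, and the mean went from 91.0 ± 2.21 to 145 ± 5.84 CPM (SD, n = 3), 1.59-fold higher (log2 fold change 0.67, SE 0.035; edgeR adjusted p = 4.19e-19). Plod2 stood 9.91% from the upper end of all log2 fold changes.

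The other lysyl hydroxylases moved little and in opposite directions. Plod1 (chromosome 4, 147909753 to 147936767, minus strand) was 59.6, 58.1 and 57.5 CPM in control and 65.8, 64.7 and 65.0 CPM in SAFB KD, 1.11-fold higher (log2 fold change 0.16, SE 0.038; edgeR adjusted p = 0.000839). Plod3 (chromosome 5, 136987019 to 136996648, plus strand) was 179, 175 and 170 CPM in control and 157, 159 and 161 CPM in SAFB KD, 1.1-fold lower (-0.14, SE 0.031; edgeR adjusted p = 0.000353). Neither gene had overlapping groups, but both changes were under 12% in size (11.5% and -9.15%).

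Per kilobase, the mix of lysyl hydroxylase RNA therefore had more Plod2 and less Plod3 in SAFB KD. Plod2 made up 26.1, 25.7 and 27.1% of the summed level in control and 38.8, 36.8 and 36.9% in SAFB KD, a difference of 11.2 percentage points. Plod3 made up 60.3 ± 0.704% in control and 49.1 ± 1.08% in SAFB KD, and Plod1 13.4% in both (SD 0.0147 and 0.0788). Plod3 thus remained the most abundant of the family in every library. The shares of Plod2 and Plod3 did not overlap between groups (exact permutation test, 2-sided, p = 0.10 each, the smallest possible), and those of Plod1 did (exact permutation p = 1.0). The summed level was 64.2 ± 1.24 CPM per kilobase in control and 71.7 ± 0.892 in SAFB KD.

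**Figure D2:**
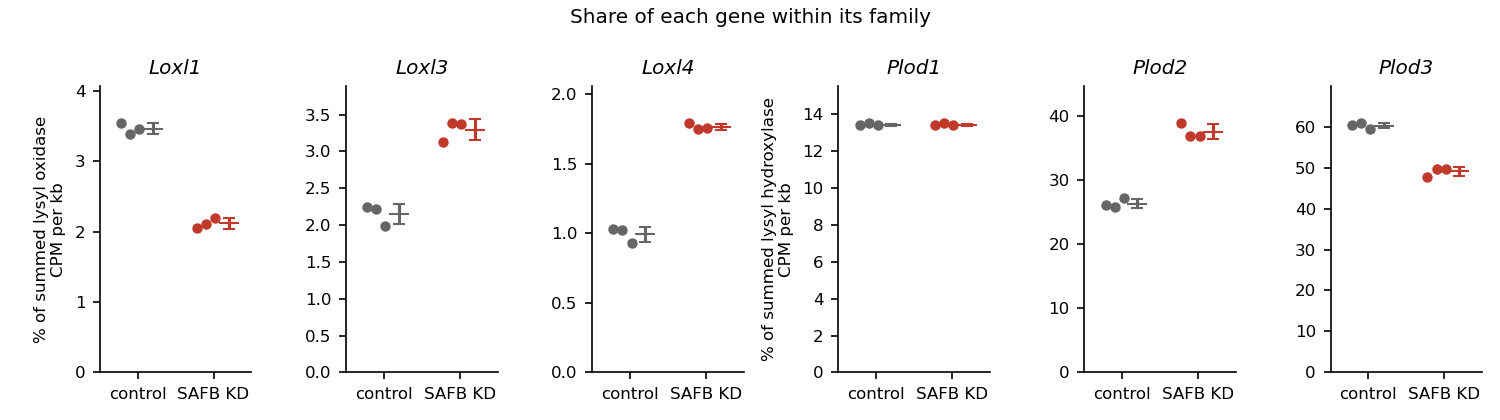
Share (%, y axis, from 0) of the summed lysyl oxidase CPM per kilobase held by Loxl1, Loxl3 and Loxl4, and of the summed lysyl hydroxylase CPM per kilobase held by Plod1, Plod2 and Plod3, in each control (grey) and SAFB KD (red) library, with mean and SD. Plod2 had a mean share of 26.3% in control and 37.5% in SAFB KD, and Loxl1 3.46% and 2.12%.

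Bmp1 and Pcolce, which act together on the C-propeptide, were both slightly lower. Bmp1 (chromosome 14, 70474558 to 70520234, minus strand) was 47.7, 47.9 and 45.1 CPM in control and 42.6, 41.9 and 43.4 CPM in SAFB KD (log2 fold change -0.14, SE 0.044; edgeR adjusted p = 0.0104). Pcolce (chromosome 5, 137605103 to 137613784, minus strand) was 216, 216 and 212 CPM in control and 202, 189 and 201 CPM in SAFB KD (-0.12, SE 0.031; edgeR adjusted p = 0.00133). In each case the SAFB KD libraries lay below the controls by less than 10% on average (-9.08% and -8.17%). Per kilobase, Pcolce exceeded Bmp1 by a ratio of 10.6 ± 0.249 in control and 10.7 ± 0.256 in SAFB KD, which overlap (exact permutation test, 2-sided, p = 0.60).

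**Figure D3:**
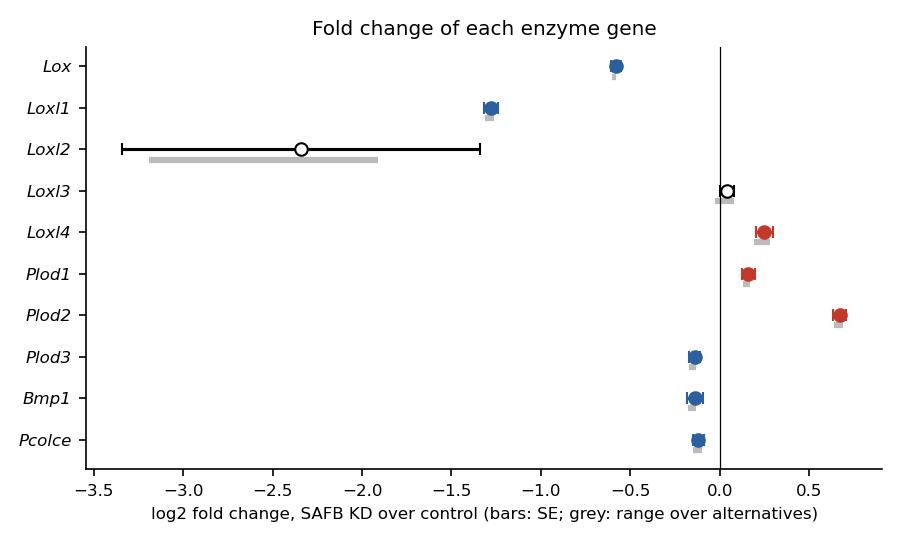
Log2 ratio of SAFB KD to control on the x axis for the 10 genes, with SE as bars, red for higher, blue for lower and open for not called. Grey bars give the range over alternative settings. Values run from -1.28 for Loxl1 to 0.67 for Plod2, apart from Loxl2, whose -2.34 rests on 18 reads.

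In control, the order of levels per kilobase of merged exons was Lox, Pcolce (56.2 ± 0.583 CPM per kilobase), Plod3 (38.7 ± 1.04), Loxl1 (31.9 ± 0.914), Loxl3 (19.8 ± 1.35), Plod2 (16.9 ± 0.409), Loxl4 (9.17 ± 0.549), Plod1 (8.63 ± 0.163), Bmp1 (5.28 ± 0.175) and Loxl2 (0.0236 ± 0.0130). Loxl4 and Plod1 differed by less than the SD of Loxl4. In SAFB KD, Plod2 (26.9 ± 1.08) stood directly after Plod3 (35.2 ± 0.529), and Loxl1 (13.1 ± 0.451) had moved below Loxl3 (20.4 ± 0.983). By this length the order of the other genes was as in control. Neighbouring places depend on the length used: per kilobase of the longest transcript, Plod2 (24.8 ± 0.603) stood above Loxl3 (22.3 ± 1.52) and Plod1 (14.3 ± 0.269) above Loxl4 (10.3 ± 0.618) in control, and Plod1 (15.9 ± 0.133) above Loxl1 (13.1 ± 0.451) in SAFB KD.

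The substrates of these enzymes did not change as a block. Of 10 crosslinked substrate genes, 9 were tested, of which 2 rose and 6 fell (median log2 fold change -0.32). Of all genes tested, 21.4% were higher and 20.1% lower, here and for the lists below. Without SAFB KD 2, 5 substrate genes were called lower. Of those that fell, Col2a1 (0.593 ± 0.198 to 0.128 ± 0.118 CPM) and Col11a2 (1.86 ± 0.0790 to 1.20 ± 0.261 CPM) were low in both groups. Col1a2 was 5056 ± 275 CPM in control and 3879 ± 71.0 in SAFB KD (SD, n = 3) and fell by 0.38 (SE 0.029), Col1a1 by 0.49 (SE 0.043) and Col3a1 by 0.32 (SE 0.028) on the log2 scale. These genes encode the chains of collagens I and III, the bulk of fibroblast collagen. The chains of collagen V, which limits fibril diameter, went opposite ways: Col5a1 fell from 708 ± 29.7 to 620 ± 19.3 CPM (-0.19, SE 0.031; edgeR adjusted p = 2.28e-06), and Col5a2 rose from 815 ± 33.6 to 1306 ± 17.8 CPM (0.68, SE 0.029; edgeR adjusted p = 1.30e-21). Elastin RNA, from Eln, the other main lysyl oxidase substrate, had 7 reads in all libraries together and was not tested.

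Relative to its collagen substrates, lysyl oxidase RNA was lower and lysyl hydroxylase RNA higher in SAFB KD. Summed over Col1a1, Col1a2, Col3a1, Col5a1 and Col5a2, collagen RNA was 902 ± 52.8 CPM per kilobase in control and 763 ± 12.9 in SAFB KD. Col5a2, which rose, held 9.45 ± 0.918% of this sum in control and 17.9 ± 0.164% in SAFB KD. The ratios below depend on its place in the sum, and ratios without it were not computed. Per 100 CPM per kilobase of these 5 chains there were 96.8, 103 and 107 of lysyl oxidases in control and 82.1, 80.6 and 80.6 in SAFB KD. For lysyl hydroxylases the values were 6.83, 7.17 and 7.38 in control and 9.66, 9.12 and 9.43 in SAFB KD. Plod2 alone went from 1.87 ± 0.113 to 3.53 ± 0.199, a ratio of 1.88. The groups did not overlap for these measures (exact permutation test, 2-sided, p = 0.10 each, the smallest possible). For Bmp1 the values were 0.586 ± 0.0241 and 0.630 ± 0.0187, and for Pcolce 6.24 ± 0.307 and 6.77 ± 0.344, the latter with overlapping groups (exact permutation test, p = 0.20). Control libraries differed in collagen I RNA, with Col1a1 at 1778, 1528 and 1388 CPM in control 1 to 3, and Col1a1 had the widest control spread of the 5 chains. With lengths of the longest transcript in place of merged exons, the difference for lysyl oxidases was -11.5 in place of -21.2. The length used also sets the level of the ratio, so that these differences are not on a shared scale.

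**Figure D4:**
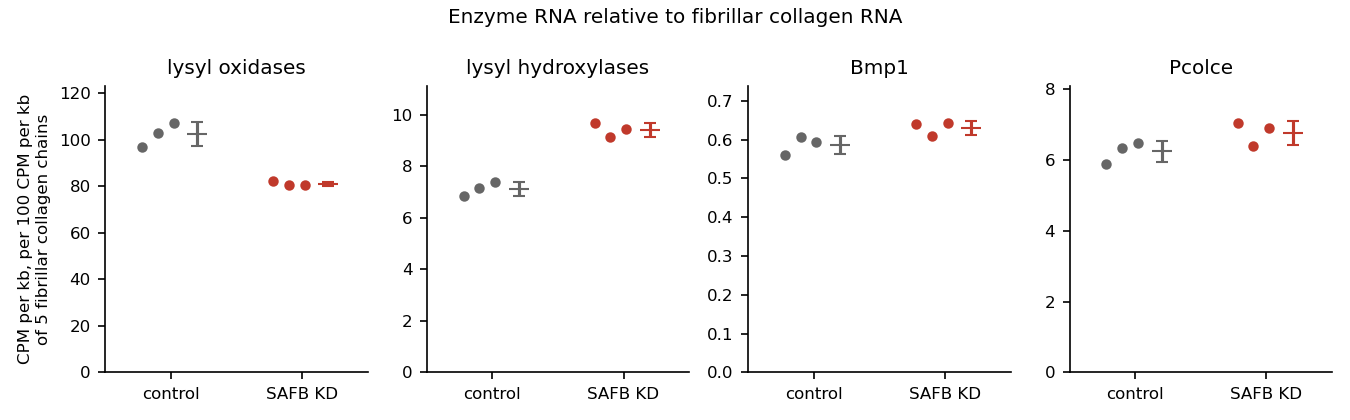
CPM per kilobase of the summed lysyl oxidases, the summed lysyl hydroxylases, Bmp1 and Pcolce per 100 CPM per kilobase of 5 fibrillar collagen chains (y axis, from 0) in control (grey) and SAFB KD (red) libraries, with mean and SD. Lysyl oxidases had a mean of 102 in control and 81.1 in SAFB KD, and lysyl hydroxylases 7.13 and 9.40.

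Genes that modify and fold procollagen before it leaves the cell changed in both directions. Of 10 genes of the prolyl hydroxylase complexes, which stabilise the triple helix, 2 rose and 3 fell (median -0.0033). P4ha2 (0.49, SE 0.034) and P4ha1 (0.15, SE 0.032), which encode catalytic subunits of prolyl 4-hydroxylase, rose, whereas P4ha3 (-0.73, SE 0.058), a further catalytic subunit, and the prolyl 3-hydroxylase gene P3h3 (-0.28, SE 0.045) fell. Of 10 tested chaperone and export genes (11 listed), 2 rose and 4 fell (median -0.055). Without control 2, control 3, SAFB KD 2 or SAFB KD 3, only 1 of these genes was called higher. Fkbp14, an endoplasmic reticulum prolyl isomerase gene whose loss causes a form of Ehlers-Danlos syndrome, went from 32.7 ± 0.257 to 17.2 ± 0.857 CPM (-0.93, SE 0.056), and Creb3l1, a transcription factor gene that promotes collagen I synthesis in bone, from 21.9 ± 1.84 to 11.9 ± 0.0679 CPM (-0.89, SE 0.067). Of the cargo receptor genes for procollagen export, Mia3 fell (-0.27, SE 0.034) and Mia2 rose (0.19, SE 0.036).

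Lox, Loxl2, Plod1, Plod2, P4ha1 and P4ha2 are known targets of hypoxia-inducible factors, and 4 of these 6 rose while Lox fell and Loxl2 was not called (median 0.15). Of these, Lox, Loxl2, Plod1 and Plod2 are members already counted above. The share of all genes called higher was 21.4%, and lower 20.1%. Other hydroxylase genes of the same pathway fell, among them Plod3, P4ha3 and P3h3. A part of these factors in the changes was not tested.

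Among other proteinases that process procollagen ends, 3 of 8 genes had enough reads. The N-proteinase genes Adamts2 (56.8 ± 4.86 to 34.2 ± 2.61 CPM, log2 fold change -0.73, SE 0.053) and Adamts14 (12.6 ± 0.973 to 6.42 ± 0.463 CPM, -0.97, SE 0.086) fell. Tll1, a close relative of Bmp1 with the same C-proteinase activity, rose from 2.19 ± 0.460 to 6.18 ± 0.690 CPM (1.47, SE 0.14; edgeR adjusted p = 7.21e-12), beyond 2-fold by glmTreat. Per kilobase it stood at 0.796 ± 0.0889 CPM in SAFB KD, against 4.81 ± 0.0852 for Bmp1.

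The largest changes of the wider pathway at high levels were those of Fbln5 and Thbs1. Both are in the list of genes for matrix proteins that bind the enzymes or steer crosslinking. Of 10 genes, 3 rose and 5 fell (median -0.25), 1 and 2 of them beyond 2-fold. Fbln5, whose product fibulin-5 brings LOXL1 to elastic fibres, fell: it was 179 ± 1.54 CPM in control and 78.6 ± 2.10 in SAFB KD (SD, n = 3; -1.19 on the log2 scale, SE 0.033; edgeR adjusted p = 6.39e-28), a log2 change close to that of Loxl1. Postn, which encodes periostin, a scaffold for the activation of lysyl oxidase by BMP1, fell at a lower level, from 9.99 ± 0.943 to 3.68 ± 0.256 CPM (-1.43, SE 0.10). Thbs1, which encodes thrombospondin-1, rose from 1374 ± 66.1 to 2986 ± 84.5 CPM (1.12, SE 0.030), and the small proteoglycan gene Dcn from 365 ± 6.22 to 501 ± 19.1 CPM (0.46, SE 0.031).

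Genes that supply copper to lysyl oxidases differed less. Of 4 genes, the copper importer gene Slc31a1 rose (0.16, SE 0.035) and Atp7b fell at a low level (1.21 ± 0.361 to 0.600 ± 0.174 CPM, -0.97, SE 0.28), a call that was lost without control 3. Atp7a, whose pump loads lysyl oxidases in the secretory pathway, was not called (-0.086, SE 0.045; edgeR adjusted p = 0.132), nor was the copper chaperone gene Atox1 (0.084, SE 0.057; adjusted p = 0.257). Over the wider pathway without the 10 members, 11 of 46 tested genes rose and 21 fell, with a median of -0.080.

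**Figure D5:**
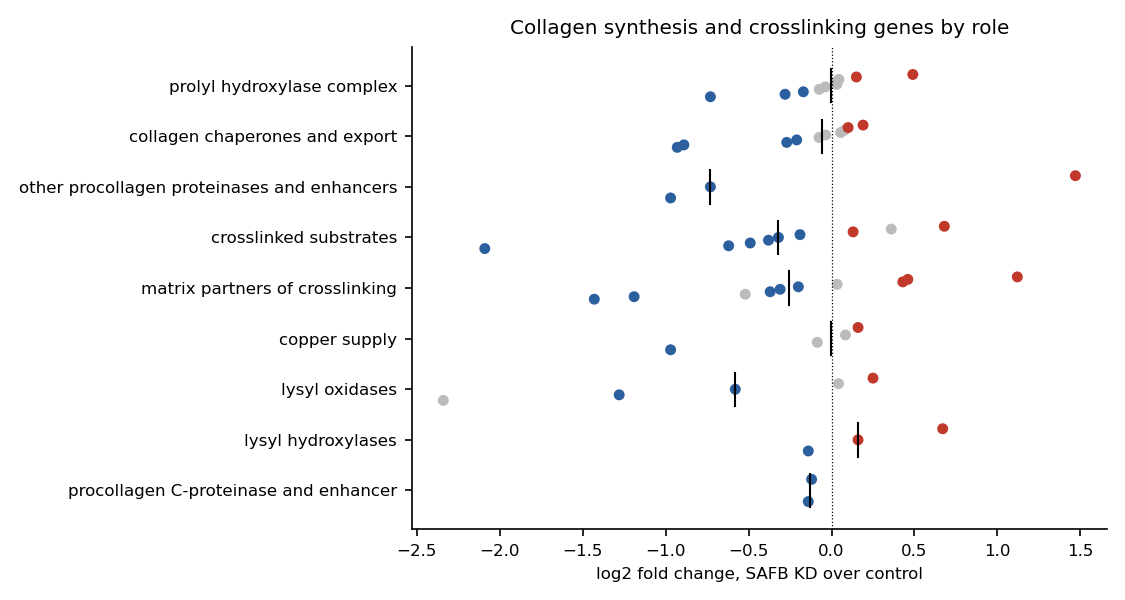
Log2 ratio of SAFB KD to control on the x axis for each tested gene of the collagen synthesis and crosslinking lists (rows), red for higher, blue for lower and light grey for not called, with the median of each list as a black bar. Medians run from -0.73 for the other procollagen proteinases to 0.16 for the lysyl hydroxylases.

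The members lie on 7 chromosomes. Flanking genes are the nearest tested genes on each side of a member, 702 to 367798 bases away. Of 20 flanking genes tested, 5 rose, 4 fell and 11 were not called, near the share of all genes tested (21.4% higher and 20.1% lower). Htra2, which overlaps the end of Loxl3 on the other strand, rose (0.36, SE 0.038) while Loxl3 was not called. Gm38391, at the start of Plod2 on the other strand, rose with it (0.79, SE 0.20) at 1.13 ± 0.111 to 1.95 ± 0.109 CPM, and Znhit1, at the start of Plod3 on the other strand, was not called (0.042, SE 0.059). At Pcolce, Fbxo24 on the same strand rose (0.96, SE 0.34) and Gm36266 on the other strand fell (-0.94, SE 0.31), both under 1 CPM. Among flanking genes, Pyroxd2, 113045 bases from Loxl4, fell (-0.74, SE 0.15). The gene 4930461G14Rik, 141936 bases from Loxl1, had 3 reads in control and 33 in SAFB KD (ratio 9.62, exact 95% interval 3.02 to 49.0, for counting error only). It passed the limit of 10 reads through SAFB KD alone, the group in which it was higher, so no rise is concluded from its interval or call. The gene is among the 5 flanking genes counted above as risen. The counts are taken to use strand, and reads over exons of both Pcolce and Fbxo24, on the same strand, could not be assigned to either.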

How the data were processed

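Each deposited file held unscaled counts of reads over genes for a single library. Reads had been trimmed by the authors and aligned in repeated passes (STAR 2.7.9a, GRCm38), with gene counts taken on the reverse strand, and that the deposited column holds the latter is inferred. The submitters' processing notes also name mm10 and deepTools 3.5.1.

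Identifiers were matched to GENCODE M21 (54495 of 54532 matched). The methods of the study name another GENCODE release for the mouse gene models. Exon lengths and gene overlaps used here may therefore differ from those behind the counts. Genes under 10 reads over 6 libraries were removed. Counts were scaled by TMM and compared by edgeR 4.0.16 (quasi-likelihood, glmTreat at a log2 threshold of 1) in R 4.3.3, without covariates, with Benjamini-Hochberg adjustment over 19452 genes and a threshold of 0.05. The SE is set so that its ratio to the log2 fold change matches the test. Levels between genes are CPM per kilobase of merged exons. Shares and ratios were compared by exact permutation (scipy 1.17.1). The script was tested on simulated counts.

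Alternatives were RLE size factors, DESeq2 1.42.0, limma-voom (limma 3.58.1), other filters, a replicate block and leaving out each library. The series text calls replicates biological. Within groups, no libraries were the same, and each pair differed beyond counting error (chi-square over its degrees of freedom 4.17 to 21.8).

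The members and lists were chosen with earlier results of these data known. Named were the targets, the 10 members, up to 4 genes with the smallest adjusted p per list, genes overlapping a member, and flanking genes called with a change over 1.5-fold. Col2a1, Col5a1, Col11a2, Eln and marker genes were named outside this rule, after their values were seen.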

Additional observations from a re-analysis of the deposited data

How the results depend on the processing

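The count of 3 members higher, and 1 beyond 2-fold, was the same under all alternatives, and 5 were lower in each except without control 2, where Loxl2 made 6. Log2 fold changes of the 9 other members kept their side of the threshold throughout, and that of Loxl2 ran from -3.19 to -1.91 when a library was left out. Loxl2 could not be tested with filterByExpr. Loxl3 ran from -0.025 to 0.077. The highest adjusted p of a called member was 0.0462, for Bmp1. Per kilobase of the longest transcript instead of merged exons, the difference between SAFB KD and control was -11.5 in place of -21.2 for lysyl oxidases per 100 of collagen, 1.44 in place of 1.65 for Plod2 per 100 of collagen, and 0.854 and -0.119 percentage points for the shares of Loxl4 and Plod1. Differences per 100 of collagen by each length are not on a shared scale. With the replicate block, 3 members were higher and 5 lower, and 11 genes of the wider pathway were higher and 22 lower. Deviations of same-numbered libraries correlated little (r = 0.0534, 0.0147 and -0.00111). Control 1 correlated best with its own number, while control 2 and 3 did not. With deviations taken from means of 3 libraries, this check cannot exclude a shared batch. Over all genes, 238 changed beyond 2-fold by edgeR, 131 by DESeq2 and 137 by limma-voom. The order of the members' levels by the longest transcript was chosen after seeing the data. Loxl2 had 18 reads, so that its fold change is imprecise, and it passed the limit on reads through control alone.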
